A study of Danio rerio with 12 samples.

Results

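The effect of adding EGCG to testosterone was measured by comparing 3 libraries of zebrafish embryos given both agents with 3 libraries of embryos given testosterone alone, 6 of the 12 libraries of the series. The libraries were chosen by their labelled treatment, and the comparison covered all 20237 genes with enough counts for a test. All 6 came from whole wild-type embryos of the AB strain, harvested at 3 days post fertilization (dpf) after exposure that began 2 to 4 hours post fertilization. Every compared embryo received 30 µM testosterone, and the EGCG group received 100 µM EGCG as well. The other 6 libraries held a solvent control (0.1% DMSO) and a group given 30 µM testosterone with 5 µM calindol; they entered the estimate of the spread, and DMSO levels are given beside some results. No group received EGCG alone, so an effect of EGCG by itself and an effect on the response to testosterone cannot be told apart. Each group had 1 library from each of clutches 1, 2 and 4, and libraries are named here by clutch; values listed for a group are always in that order, so that same-placed values share a clutch.

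EGCG, epigallocatechin gallate, is the main catechin of green tea. It is an antioxidant polyphenol that in culture binds many proteins, and the study used it as a strong antagonist of GPRC6A, a G protein-coupled receptor for amino acids and cations that has also been described as a membrane sensor of testosterone. Testosterone acts in the nucleus through the androgen receptor, and in the fish brain aromatase converts it to estradiol. The study asked which genes respond to testosterone through GPRC6A. This comparison lists genes that differ when the antagonist is added, whether or not they respond to testosterone or depend on that receptor.

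Total counts were 12668572, 18823074 and 22510680 with testosterone and 8181295, 15411090 and 17988541 with EGCG, so the EGCG library of clutch 1 was the shallowest of the series. Expression is given as CPM (counts divided by the scaled library total), which does not correct for gene length and is therefore compared only within a gene. Of 60 markers of 20 tissues, 46 averaged at least 1 CPM in both groups, and each of the 20 tissues had at least 1 such marker. The counts miss some genes that embryos are known to use. Of the markers in the table, 9 were not tested because no library had more than 5 counts, among them ckma and mylpfa of muscle, col2a1a of cartilage, and lyz and mpeg1.1 of leukocytes. The ribosomal protein gene rpl12 and the mitochondrial gene mt-nd1 were also listed at 0 in all libraries, so a gene listed at 0 is not evidence that it was silent.

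EGCG changed many genes by small amounts. At an adjusted p under 0.05, 2355 genes (11.6% of those tested) differed from testosterone alone, of which 1224 (6.05%) were higher and 1131 (5.59%) lower. The median absolute log2 fold change of these genes was 0.49, and 206 changed by at least 1 on the log2 scale. The count depended on single libraries. Leaving out EGCG library 1 gave 737 (1.95% higher and 1.64% lower), leaving out EGCG library 2 gave 584 (1.45% and 1.39%), and leaving out testosterone library 2 gave 804 (2.25% and 1.66%). A set of 485 genes (2.4%) kept the call, in the same direction, in each of the 6 fits that left out 1 compared library, and also in the fits without 1 DMSO or calindol library, with 262 (1.29%) higher and 223 (1.1%) lower, and these are called stable below. In all 485 the EGCG libraries lay wholly above or wholly below the testosterone libraries, which was the case for 15.8% and 15.9% of all genes tested. Stable genes were selected on these same libraries, so their separation is not separate evidence. Other fits used below called 7.72% of genes higher and 7.88% lower without calindol library 1, 4.84% and 4.11% with clutch as a block, and 4.14% and 2.4% with only the 6 libraries and that block. Without EGCG library 4, testosterone library 1 or 4, or DMSO library 1, 2 or 4, the shares higher were 5.32%, 6.6%, 5.13%, 4.93%, 4.98% and 4.82%, and those lower 4.35%, 5.79%, 5.34%, 4.27%, 4.28% and 3.95%. Among the stable genes the EGCG library of clutch 4 was the nearest to testosterone in 363 (74.8%), and the testosterone library of clutch 2 was the farthest from EGCG in 353 (72.8%). Over all tested genes those shares were 46.2% and 47.9%.

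The presence of EGCG left the marker of testosterone exposure high. Brain aromatase, cyp19a1b (ENSDARG00000098360), had 40.7, 34.3 and 58.4 CPM with testosterone and 52.1, 42.9 and 51.6 CPM with EGCG, against a mean of 2.58 CPM in DMSO. The groups overlapped, and the log2 fold change between them was 0.13 (SE 0.19, adjusted p 0.697 by edgeR). None of 13 tested genes of a panel of nuclear and membrane receptors for sex steroids, gprc6a among them, passed the threshold, with log2 fold changes from −0.43 to 0.41 and adjusted p from 0.224 to 0.976. The receptor gene gprc6a (ENSDARG00000005371) was scarce, at 3.19, 2.6 and 1.7 CPM with testosterone and 2.02, 0.956 and 2.53 CPM with EGCG (log2 fold change −0.43 ± 0.39, adjusted p 0.508). The androgen receptor gene ar (ENSDARG00000067976) had 0.717, 1.41 and 1.09 CPM with testosterone and 0.830, 2.17 and 0.551 CPM with EGCG (log2 fold change 0.14 ± 0.50, adjusted p 0.888). At these levels only large differences could have been seen for either receptor.

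The largest stable rises included genes of brain, muscle, pancreas and clock. The brain receptor gene gpr85 (ENSDARG00000068701), an orphan G protein-coupled receptor, had 0.796, 0 and 0.0437 CPM with testosterone and 8.42, 5.73 and 2.92 CPM with EGCG (log2 fold change 4.63 ± 0.70, adjusted p 0.00217). The error after ± is the standard error (SE) of the log2 fold change, here and below. Its DMSO mean was 3.19 CPM, between those 2 groups, and the calindol libraries, at 0.434, 0.456 and 0.43 CPM, lay within the range of testosterone alone. The transcriptional cofactor gene lmo3 (ENSDARG00000008720) had 0, 0.0542 and 0 CPM with testosterone, a single count in all, and 2.02, 0.573 and 0.826 CPM with EGCG (adjusted p 0.00853). No fold is given for lmo3 because its testosterone libraries held 1 count.

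The gene tcap (ENSDARG00000007344), which encodes the titin cap protein telethonin of the muscle Z-disc, had 14.4, 8.62 and 19.5 CPM with testosterone and 67.3, 55.6 and 53.3 CPM with EGCG. It rose by a log2 fold change of 2.04 ± 0.22 (adjusted p 0.000319), and its DMSO mean of 10.6 CPM was also below every EGCG library. The relaxin family receptor gene rxfp2a (ENSDARG00000032820) rose from 3.66, 1.68 and 1.70 CPM to 7.11, 8.28 and 5.95 CPM (log2 fold change 1.64 ± 0.33, adjusted p 0.00784). The neuronal calcium sensor gene hpca (ENSDARG00000018397) rose from 28.2, 15.0 and 7.91 CPM to 55.5, 57.0 and 37.4 CPM (log2 fold change 1.59 ± 0.32, adjusted p 0.00785). DMSO means of rxfp2a and hpca were 2.21 and 17.6 CPM, close to those of testosterone alone. The pancreatic lipase gene cel.2 (ENSDARG00000029822) rose from 0.637, 0.542 and 1.4 CPM to 3.32, 2.87 and 3.03 CPM (log2 fold change 1.76 ± 0.35, adjusted p 0.00774), still below its DMSO mean of 9.23 CPM; it has a close neighbouring copy, and reads may be split between them.

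The largest stable falls included genes of cell division, lipid metabolism and the notochord. DNA ligase 1, lig1 (ENSDARG00000060041), which joins the fragments of newly copied DNA, fell from 5.97, 12.3 and 13.4 CPM to 2.85, 2.55 and 4.35 CPM (log2 fold change −1.69 ± 0.29, adjusted p 0.00365). The gene spdl1 (ENSDARG00000103996), whose product acts at kinetochores in mitosis, fell from 4.38, 6.45 and 6.77 CPM to 2.73, 1.08 and 2.31 CPM (log2 fold change −1.58 ± 0.32, adjusted p 0.00853). As in all stable genes, the groups did not overlap, and the testosterone library of clutch 1 was the lowest of its group for both lig1 and spdl1. The nucleolar chaperone gene npm1a (ENSDARG00000014329) fell from 32.9, 56.4 and 60.7 CPM to 17.1, 18.7 and 28.2 CPM (log2 fold change −1.22 ± 0.21, adjusted p 0.00365). The fatty acid elongase gene elovl2 (ENSDARG00000045414), needed for the longest polyunsaturated fatty acids, fell from 13.5, 17.0 and 17.1 CPM to 7.23, 4.84 and 7.38 CPM (log2 fold change −1.30 ± 0.20, adjusted p 0.00244). For npm1a and elovl2 the DMSO means, 28.8 and 7.86 CPM, were nearer to EGCG than to testosterone alone.

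The coagulation factor gene f8 (ENSDARG00000101385) fell from 19.1, 18.2 and 15.8 CPM to 9.48, 5.73 and 7.76 CPM (log2 fold change −1.23 ± 0.16, adjusted p 0.0012). The progranulin gene grna (ENSDARG00000004954) fell from 7.57, 7.32 and 4.80 CPM to 1.78, 1.72 and 3.41 CPM (log2 fold change −1.45 ± 0.27, adjusted p 0.00625). The connexin gene cx32.2 (ENSDARG00000076789), which encodes a gap junction protein, fell by 1.6 ± 0.31 on the log2 scale (adjusted p 0.00735). The gene ggact.2 (ENSDARG00000038248), a gamma-glutamylamine cyclotransferase of a cluster of near copies, had 20.7, 19.4 and 19.4 CPM with testosterone, 5.93, 7.07 and 7.27 CPM with EGCG and a mean of 5.34 CPM in DMSO. Because of those copies its fall (log2 fold change −1.54 ± 0.23, adjusted p 0.00207) is uncertain as to which gene it belongs to.

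**Figure D1:**
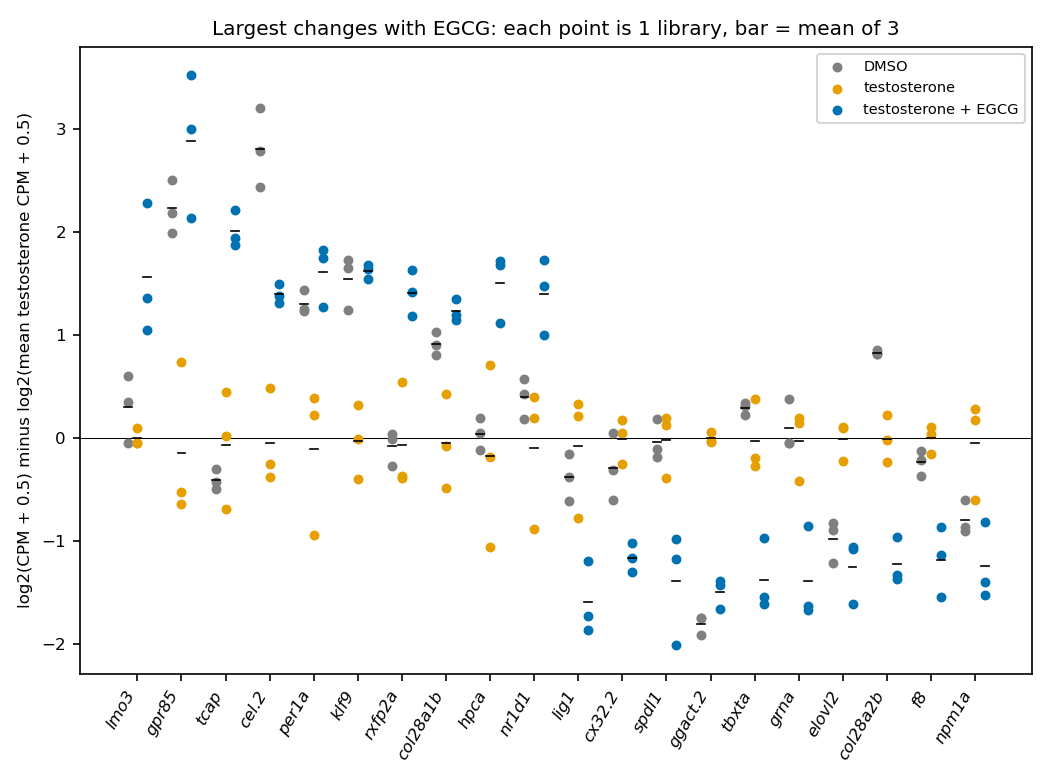
Level of the 20 stable genes with the largest changes, in each library of DMSO, testosterone and testosterone with EGCG (n = 3 each), on the vertical axis as log2(CPM + 0.5) minus the same for the mean testosterone level; bars mark group means. Genes were chosen only if the groups lay apart, so EGCG points sit above testosterone points for the 10 genes on the left and below them for the 10 on the right. DMSO points lie near EGCG for klf9 and ggact.2 but near testosterone for tcap and f8.

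The circadian clock runs on a feedback loop in which Clock and Bmal proteins drive period, cryptochrome and Rev-erb genes, whose products then repress their own transcription; zebrafish larval tissues keep this clock and set it by light. Of 33 tested clock genes, 13 (39.4%) rose with EGCG, none fell and 20 were not called. The median log2 fold change of the 33 genes was 0.31, against −0.02 over all genes. Of the 13, 7 were stable, and leaving out EGCG library 2 left 7. The labels used here give no time of day of collection.

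Among repressors of the loop, per1b (ENSDARG00000012499) had 55.8, 40 and 65.5 CPM with testosterone and 136, 139 and 125 CPM with EGCG (log2 fold change 1.31 ± 0.13, adjusted p 0.000281). Its DMSO mean was 58.7 CPM, level with testosterone alone, and every EGCG library lay far above the highest testosterone library. The related gene per1a (ENSDARG00000056885) rose from 5.97, 2.38 and 6.77 CPM to 18.1, 19.1 and 12.8 CPM (log2 fold change 1.72 ± 0.27, adjusted p 0.00246). The Rev-erb alpha gene nr1d1 (ENSDARG00000033160), a heme-binding nuclear receptor that represses Bmal, rose from 25.2, 11.7 and 29.2 CPM to 74.2, 62.2 and 44.5 CPM (log2 fold change 1.44 ± 0.26, adjusted p 0.00467). The testosterone library of clutch 2 was the lowest for per1b, per1a and nr1d1.

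Other Rev-erb genes followed at smaller size. The gene nr1d4b (ENSDARG00000059370) rose from 5.42, 3.96 and 4.54 CPM to 9.36, 9.88 and 9.58 CPM (log2 fold change 1.06 ± 0.16, adjusted p 0.00217), and nr1d2a (ENSDARG00000003820) rose by 0.71 ± 0.13 (adjusted p 0.00482). The repressor gene ciarta (ENSDARG00000058094) rose by 0.49 ± 0.08 (adjusted p 0.00324). The gene nfil3-6 (ENSDARG00000087188), of a family of bZIP repressors in the output of the clock, had 12, 10.8 and 11.5 CPM with testosterone and 21.7, 15.0 and 22.7 CPM with EGCG (log2 fold change 0.79 ± 0.16, adjusted p 0.00888), with a DMSO mean of 6.5 CPM below both.

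Glucocorticoids, through their nuclear receptor, induce some of the same genes. Of 14 tested genes of a glucocorticoid response list, 5 rose and all 5 were stable; per1a and per1b are 2 of them and stand in the clock list too. The gene klf9 (ENSDARG00000068194), a Krüppel-like transcription factor, had 4.30, 5.80 and 7.38 CPM with testosterone and 19.2, 19.8 and 17.9 CPM with EGCG (log2 fold change 1.67 ± 0.21, adjusted p 0.0012), and its DMSO mean was 18.1 CPM. The gene cebpd (ENSDARG00000087303), a bZIP transcription factor, rose from 38.62, 44.1 and 49.6 CPM to 77.9, 66.1 and 76.8 CPM (log2 fold change 0.73 ± 0.10, adjusted p 0.00138), with a DMSO mean of 91.3 CPM. The co-chaperone gene fkbp5 (ENSDARG00000028396), which tunes steroid receptors, had 9, 6.56 and 8.65 CPM with testosterone and 18.6, 15.6 and 15.4 CPM with EGCG (log2 fold change 1.03 ± 0.14, adjusted p 0.00148). With EGCG fkbp5 remained well below its DMSO mean of 60.3 CPM, whereas klf9 sat at its DMSO level. Of 10 androgen response genes 1 (10%) rose, stably and by 1.03, the value of fkbp5. Of 14 thyroid hormone genes 3 (21.4%) rose, by up to 1.67, the value of klf9. Of those 3 genes 1 was stable, and 1 was called without EGCG library 1 or 2 or testosterone library 2. Over all genes 6.05% rose. The glucocorticoid list may thus share fkbp5 and klf9 with these lists. Of the list, 1 gene fell, tsc22d3 (ENSDARG00000075666), a glucocorticoid-induced leucine zipper gene in mammals. It had 17.4, 11.11 and 17.1 CPM with testosterone and 5.57, 5.86 and 12.7 CPM with EGCG (log2 fold change −0.87, adjusted p 0.0404), the groups overlapped, and the call was absent in 7 of the 12 fits without 1 library, namely those without testosterone library 1 or 4, EGCG library 1 or 2 or any DMSO library (adjusted p up to 0.176).

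**Figure D2:**
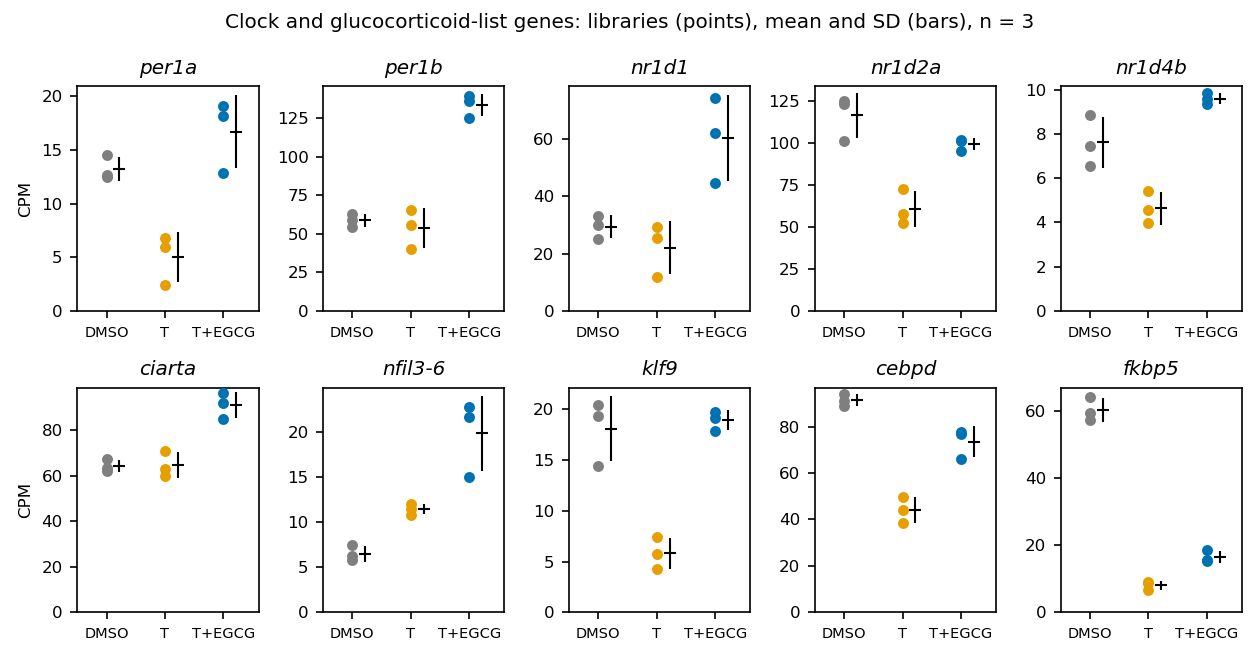
CPM of 10 clock and glucocorticoid response genes in DMSO, testosterone (T) and testosterone with EGCG (T+EGCG), with points for libraries and bars for mean and SD (n = 3). Only stable genes that rose are shown, so EGCG libraries lie above testosterone libraries in every panel. EGCG libraries lie above DMSO for per1b, nr1d1, nr1d4b, ciarta and nfil3-6, and below DMSO for cebpd and fkbp5.

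The synaptic and adhesion list had the most members that rose of the 79 lists, a count that depends on list size. By share, the clock list (39.4%) and the glucocorticoid list (35.7%) stood higher. Synapses pass signals by fusing vesicles at an active zone and receiving transmitter at clustered receptors, and adhesion molecules hold both sides together. Of 170 synaptic and adhesion genes tested, 58 (34.1%) rose and 4 (2.35%) fell, the median log2 fold change was 0.41, and 148 were above 0. The 58 became 22 without EGCG library 1, 15 without EGCG library 2 and 26 without testosterone library 2; 14 were stable. The 4 that fell became 2 without EGCG library 2, and 2 of them were stable.

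Among scaffolds of the active zone, the bassoon gene bsnb (ENSDARG00000079161) had 76.8, 53.9 and 79.6 CPM with testosterone and 143, 154 and 123 CPM with EGCG (log2 fold change 1.00 ± 0.16, adjusted p 0.00276). The piccolo gene pcloa (ENSDARG00000063299) rose from 37.7, 34.8 and 57.9 CPM to 111, 116 and 82.8 CPM (log2 fold change 1.23 ± 0.20, adjusted p 0.00297), and erc2 (ENSDARG00000105178) rose by 0.82 ± 0.16 (adjusted p 0.00675). The vesicle fusion gene stxbp1a (ENSDARG00000001994), which encodes Munc18, rose from 345, 270 and 333 CPM to 494, 493 and 414 CPM (log2 fold change 0.56 ± 0.11, adjusted p 0.00735). In each of these genes the testosterone library of clutch 2 was the lowest of all 6 libraries and EGCG library 4 the lowest of its group.

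Stable members of the list that act in adhesion or at the postsynaptic side are given here as examples, chosen after their values were seen. The presynaptic neurexin genes nrxn2a (ENSDARG00000061454) and nrxn2b (ENSDARG00000063150) rose by 0.84 and 0.90 on the log2 scale (adjusted p 0.00497 and 0.00365). Their postsynaptic partner neuroligin, nlgn2a (ENSDARG00000077329), rose by 0.69 ± 0.13 (adjusted p 0.0073), from 47.3, 30.9 and 40.6 CPM to 67.2, 69.1 and 54.7 CPM. The postsynaptic scaffold gene dlg4a (ENSDARG00000041926), which encodes PSD-95, rose by 0.65 ± 0.13 (adjusted p 0.00795). The protocadherin gene pcdh10b (ENSDARG00000102824) rose by 0.48 ± 0.08 (adjusted p 0.00341). A member that fell was the cadherin gene cdh27 (ENSDARG00000055093), with 32.6, 33.3 and 26.0 CPM with testosterone and 16.5, 17.2 and 20.6 CPM with EGCG (log2 fold change −0.75 ± 0.12, adjusted p 0.00329).

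Of 112 neurotransmitter receptor genes, 13 (11.6%) rose and 1 fell, with a median log2 fold change of 0.30, and the 5 stable members all rose. The count of 13 was 6, 5 and 6 without EGCG library 1, EGCG library 2 and testosterone library 2, and 23 without calindol library 1. Of these 5 genes, 3 encode NMDA-type glutamate receptor subunits, which pass calcium when glutamate and membrane depolarisation coincide. The subunit gene grin2bb (ENSDARG00000030376) had 46.0, 34.5 and 51.9 CPM with testosterone and 87.1, 92.2 and 70.0 CPM with EGCG (log2 fold change 0.91 ± 0.16, adjusted p 0.0037). The log2 fold changes of grin2ca (ENSDARG00000078149) and grin2aa (ENSDARG00000034493) were 0.90 and 0.83 (adjusted p 0.00614 and 0.00665). The metabotropic glutamate receptor gene grm5a (ENSDARG00000004445) rose by 0.64 ± 0.12 (adjusted p 0.00666) and the GABA-A subunit gene gabra2a (ENSDARG00000091459), part of an inhibitory channel, by 0.94 ± 0.18 (adjusted p 0.00685). Excitatory and inhibitory receptors were thus both represented.

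Of 175 voltage-gated channel genes, 26 (14.9%) rose and 5 (2.86%) fell, with 4 and 1 stable. The count of 26 became 6 without EGCG library 1, without EGCG library 2 or without testosterone library 2, and the count of 5 became 1, 2 and 3. The P/Q-type calcium channel gene cacna1ab (ENSDARG00000006923), which triggers transmitter release, rose from 45.1, 33.6 and 47.6 CPM to 72.1, 73.6 and 68.9 CPM (log2 fold change 0.77 ± 0.13, adjusted p 0.00422). The sodium channel gene scn12aa (ENSDARG00000090724) rose from 3.82, 2.87 and 4.63 CPM to 9.36, 9.11 and 6.5 CPM (log2 fold change 1.12 ± 0.22, adjusted p 0.0073). The channel gene that fell stably was clcn1b (ENSDARG00000012269), of the chloride channel family that stabilises the resting potential of skeletal muscle, with 12.8, 16.1 and 15.3 CPM with testosterone and 4.98, 10.1 and 8.76 CPM with EGCG (log2 fold change −0.86 ± 0.18, adjusted p 0.0106).

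Calls among general neuronal markers were less stable than those among synaptic genes. Of 40 tested, 13 (32.5%) rose and none fell, but none was stable, and leaving out EGCG library 1, EGCG library 2 or testosterone library 2 left 1, 0 and 1. Their summed level was 7112, 5940 and 7157 CPM with testosterone and 8709, 8709 and 7876 CPM with EGCG, so the groups did not overlap and testosterone library 2 was the lowest. Sums without overlap, here and below, do not by themselves set a list apart, since lists with few calls had them too. Of 63 mitochondrial ribosomal protein genes 1 was called, yet their sums were 1685 to 1705 CPM with testosterone and 1583 to 1618 CPM with EGCG. In whole embryos, fewer cells of a type and less RNA per cell cannot be told apart. Photoreceptor genes had a median log2 fold change of 0.48, with 40 of 44 above 0, and 2 (4.55%) were called higher, near the share over all genes. That count rested on single libraries: it was 10 without testosterone library 4, 6 without testosterone library 1, 5 without calindol library 1, 0 without testosterone library 2, EGCG library 1 or EGCG library 2, and 1 without each of the other 6 libraries in turn or with clutch as a block. Their summed level was 5412, 2748 and 7137 CPM with testosterone and 8015, 7702 and 6460 CPM with EGCG, again with testosterone library 2 far below the other libraries and with overlap between the groups. Lens crystallins rose in 10 of 48 genes (20.8%), a count that fell to 1 without EGCG library 2 and 3 without testosterone library 2. The stable one, crybb1 (ENSDARG00000068507), a beta crystallin of the transparent lens, had 331, 248 and 256 CPM with testosterone and 572, 716 and 460 CPM with EGCG (log2 fold change 1.07 ± 0.19, adjusted p 0.00493).

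A part of the genes that modify chromatin rose. Enzymes and remodelling complexes of this list add or remove marks on histones and move nucleosomes. Of 124 tested, 30 (24.2%) rose and 5 (4.03%) fell, and the 13 stable members all rose. The count of 30 was 14 without EGCG library 1, 13 without EGCG library 2 and 17 without testosterone library 2, while the count of 5 was 0, 1 and 1 in those fits, 3 on omitting testosterone library 1, DMSO library 1 or DMSO library 2, 2 on omitting DMSO library 4, and 2 with clutch as a block. The median log2 fold change was 0.11 and 80 of the 124 were above 0. The summed level was 11040, 10750 and 10520 CPM with testosterone and 12350, 12540 and 11690 CPM with EGCG, without overlap.

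The bromodomain gene baz2ba (ENSDARG00000057782) had 127, 131 and 131 CPM with testosterone and 230, 227 and 194 CPM with EGCG (log2 fold change 0.74 ± 0.08, adjusted p 0.000281), among the smallest adjusted p of any gene. The histone H3K4 methyltransferase genes kmt2ca (ENSDARG00000079312) and kmt2cb (ENSDARG00000075560), which act at enhancers, rose by 0.77 and 0.55 (adjusted p 0.000678 and 0.00207). The testosterone libraries of kmt2ca, at 73.7, 67.2 and 74.5 CPM, lay close together and below its EGCG libraries, at 130, 128 and 110 CPM. The ARID1 subunits of the BAF nucleosome remodelling complex rose stably. They are encoded by arid1ab (ENSDARG00000101891), arid1b (ENSDARG00000092503) and arid1aa (ENSDARG00000101710), which rose by 0.49, 0.72 and 0.44 (adjusted p 0.00207, 0.00257 and 0.0029). The histone acetyltransferase genes ep300b (ENSDARG00000061108) and crebbpa (ENSDARG00000104609), coactivators of many transcription factors, rose by 0.46 and 1.03 (adjusted p 0.00362 and 0.00736). The histone demethylase genes kdm4b (ENSDARG00000099675) and kdm6al (ENSDARG00000059794) rose by 0.47 and 0.56 (adjusted p 0.00265 and 0.006). Grouped by symbol alone, 228 families had at least 10 tested genes, and kmt with 6 of 10, arid with 5 of 11 and grm with 5 of 11 had the largest shares called higher. Omitting EGCG library 1, EGCG library 2 or testosterone library 2 left 3 for kmt in each case, 5 for arid in each case, and 2, 1 and 2 for grm, the metabotropic glutamate receptors.

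**Figure D3:**
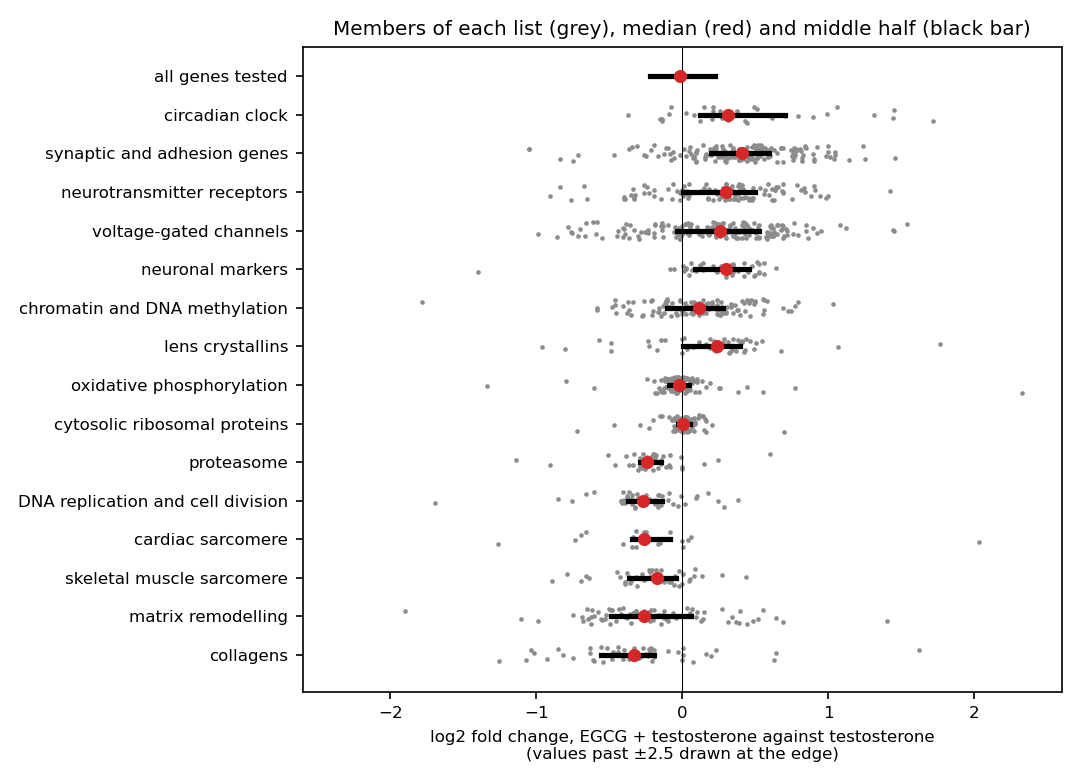
Log2 fold change of EGCG with testosterone against testosterone alone for members of 15 gene lists (grey points, 1 per gene), with the median in red and the interquartile range as a black bar; the top line gives all 20237 genes without points. Medians lie at 0.41 for synaptic and adhesion genes and 0.31 for clock genes, near 0 for ribosomal proteins and oxidative phosphorylation, and at −0.33 for collagens.

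Collagens were the family with the largest share of genes that fell. Collagens are triple-helical proteins that form fibrils, basement membranes and the anchoring structures of skin, cartilage and fin. Of 49 tested, 27 (55.1%) fell and 1 (2.04%) rose, and the median log2 fold change was −0.33. Of the 27, 15 were stable, and the count was 15, 16 and 17 without EGCG library 1, EGCG library 2 and testosterone library 2. The summed level of the 49 genes was 16310 to 18400 CPM with testosterone and 13240 to 14130 CPM with EGCG, with 19470 to 20840 CPM in DMSO. The 3 groups did not overlap, and EGCG lay on the far side of testosterone from DMSO.

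Collagens that anchor epidermis to the basement membrane were among the most affected. The hemidesmosome collagen gene col17a1a (ENSDARG00000069415) had 525, 589 and 468 CPM with testosterone and 235, 231 and 288 CPM with EGCG (log2 fold change −1.07 ± 0.11, adjusted p 0.000281), against 738 CPM in DMSO. The anchoring fibril collagen gene col7a1 (ENSDARG00000021720) fell from 141, 155 and 108 CPM to 60.2, 61.2 and 77.6 CPM (log2 fold change −1.01 ± 0.15, adjusted p 0.00217). The basement membrane collagen genes col4a5 (ENSDARG00000052063) and col4a6 (ENSDARG00000052061), which are neighbours read from opposite strands in vertebrates, both fell by 0.40 (adjusted p 0.00735 for each).

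Some fibril-forming and fibril-associated collagens fell too. The gene col5a3b (ENSDARG00000101816), a regulator of fibril diameter, fell from 350, 379 and 269 CPM to 141, 152 and 192 CPM (log2 fold change −1.04 ± 0.18, adjusted p 0.00365). The cartilage fibril gene col11a1b (ENSDARG00000009014) fell by 0.44 ± 0.06 (adjusted p 0.00207) and col12a1b (ENSDARG00000019601), found on fibril surfaces, by 0.63 ± 0.09 (adjusted p 0.00207). The gene col10a1a (ENSDARG00000054753), used in fish by cells that form bone, fell from 258, 250 and 289 CPM to 184, 170 and 193 CPM (log2 fold change −0.54 ± 0.08, adjusted p 0.00207). Collagen XXVIII genes went both ways. The gene col28a2b (ENSDARG00000100781) fell from 13.9, 11.7 and 9.96 CPM to 4.27, 4.4 and 5.84 CPM (log2 fold change −1.26 ± 0.19, adjusted p 0.00207). The single collagen that rose, col28a1b (ENSDARG00000087087), had 1.67, 1.03 and 0.655 CPM with testosterone and 3.08, 3.63 and 3.19 CPM with EGCG (log2 fold change 1.62 ± 0.31, adjusted p 0.00683). The collagen chaperone gene serpinh1b (ENSDARG00000019949), whose product Hsp47 folds procollagen, fell from 164, 176 and 120 CPM to 64.7, 76.8 and 95.0 CPM (log2 fold change −0.95 ± 0.16, adjusted p 0.00363).

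**Figure D4:**
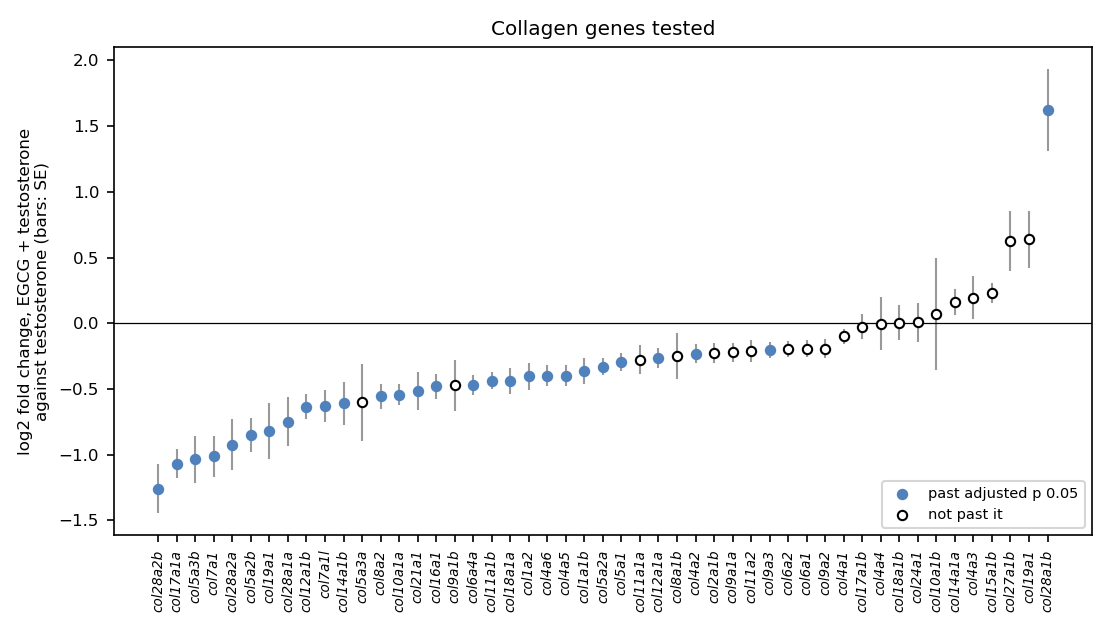
Log2 fold change with SE for each of the 49 collagen genes tested, ordered by size, with filled points for genes past an adjusted p of 0.05. Of the filled points 27 lie below 0 and 1, col28a1b, lies above.

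Of 76 genes for laminins, fibronectins, proteases and cross-linking enzymes, 29 (38.2%) fell and 4 (5.26%) rose, with a median log2 fold change of −0.26; 13 that fell and none that rose were stable. The 29 became 15, 14 and 17 without EGCG library 1, EGCG library 2 and testosterone library 2, and the 4 became 0 in each of these fits. With only the 6 libraries and a clutch term, 17 fell. The gelatinase gene mmp2 (ENSDARG00000017676), a metalloprotease that cuts denatured collagen, fell from 231, 287 and 270 CPM to 177, 169 and 188 CPM (log2 fold change −0.56 ± 0.08, adjusted p 0.00207). The fibronectin gene fn1b (ENSDARG00000006526) fell from 608, 681 and 506 CPM to 331, 339 and 443 CPM (log2 fold change −0.69 ± 0.14, adjusted p 0.0073). Laminin subunit genes lamb2 (ENSDARG00000002084), lamc1 (ENSDARG00000036279), lamb4 (ENSDARG00000039133) and lama2 (ENSDARG00000099390), which build the basement membrane network, fell by 0.48, 0.39, 0.68 and 0.58 on the log2 scale (adjusted p 0.00397, 0.00685, 0.00675 and 0.00887); the call of lamc1 was lost with only the 6 libraries and a clutch term (adjusted p 0.062). The cross-linking enzyme genes loxl2b (ENSDARG00000044074) and loxl2a (ENSDARG00000044010) fell by 0.45 and 0.50 (adjusted p 0.00441 and 0.0078). The DMSO means of fn1b and mmp2 were 619 and 278 CPM, within the range of testosterone alone.

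Of 29 cartilage and bone genes, 9 (31.0%) fell and 1 rose; 4 were stable, and the 9 became 4, 5 and 5 without EGCG library 1, EGCG library 2 and testosterone library 2. The matrilin gene matn4 (ENSDARG00000015947), a filament-forming adaptor of cartilage matrix, fell from 804, 833 and 756 CPM to 489, 481 and 577 CPM (log2 fold change −0.63 ± 0.07, adjusted p 0.000527). Its relative matn3a (ENSDARG00000069245) fell from 114, 114 and 88.5 CPM to 45.2, 63.3 and 62.8 CPM (log2 fold change −0.87 ± 0.13, adjusted p 0.00207). Of 12 notochord genes, 5 (41.7%) fell, 3 of them stably, and 3 fell without EGCG library 1 or without testosterone library 2. The notochord transcription factor gene tbxta (ENSDARG00000101576), the brachyury homologue, had 4.94, 8.08 and 5.24 CPM with testosterone and 1.66, 2.87 and 1.76 CPM with EGCG (log2 fold change −1.52 ± 0.31, adjusted p 0.0086).

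Of 44 skeletal muscle sarcomere genes, 11 (25%) fell and none rose, and 4 were stable. The muscle Z-disc gene tcap, which rose, is outside this list and counted with the cardiac genes, whereas the titin genes are in both. The 11 became 4, 6 and 4 without EGCG library 1, EGCG library 2 and testosterone library 2. They became 17 without calindol library 1 and 5 with only the 6 libraries and a clutch term. The giant spring protein titin is encoded by the neighbours ttn.1 (ENSDARG00000000563) and ttn.2 (ENSDARG00000028213), which fell by 0.70 ± 0.14 and 0.66 ± 0.14 (adjusted p 0.00838 and 0.0109), with the EGCG library of clutch 1 lowest for both. The nebulin gene neb (ENSDARG00000032630), a ruler of thin filament length, fell from 41.8, 29.7 and 30.7 CPM to 17.2, 20.9 and 16.7 CPM (log2 fold change −0.89 ± 0.18, adjusted p 0.00906). The triadin gene trdn (ENSDARG00000041779), which anchors the calcium store to the release channel, fell from 82.0, 99.3 and 79.5 CPM to 52.9, 58.7 and 60.8 CPM (log2 fold change −0.59 ± 0.09, adjusted p 0.00207).

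Heart genes are given because the study's title names cardiac edema. The labels used here give no edema score, so a link between heart gene levels and edema was not tested. Of 21 cardiac sarcomere genes, 6 (28.6%) fell and 1, tcap, rose; 2 that fell were stable, the titin genes, which muscle shares, and 3 were left on omitting EGCG library 1 and 2 on omitting EGCG library 2. The summed level of the 21 genes was 4794, 4939 and 4137 CPM with testosterone and 2760, 3353 and 3786 CPM with EGCG, without overlap. That sum includes the titin genes, so it does not measure the heart alone. With testosterone the heart markers myl7, myh6 and tnnt2a averaged only 40.29, 12.27 and 23.63 CPM. The mean of tnnt2a was 19.82 CPM with EGCG and 20.05 CPM in DMSO. The atrial myosin gene myh6 (ENSDARG00000090637) had 14.2, 13.3 and 9.30 CPM with testosterone and 7.70, 5.67 and 8.64 CPM with EGCG (log2 fold change −0.73 ± 0.22, adjusted p 0.0436). Its call was lost with clutch as a block (adjusted p 0.054) and in 6 of the 12 fits without 1 library, namely DMSO library 1, testosterone library 1 or 2, calindol library 2 or EGCG library 1 or 2 (adjusted p up to 0.188). The light chain gene myl7 (ENSDARG00000019096), expressed throughout the early heart, had 35.5, 44.7 and 40.6 CPM with testosterone and 26.7, 33.0 and 40.8 CPM with EGCG, and did not pass (log2 fold change −0.26 ± 0.14, adjusted p 0.238). The natriuretic peptide gene nppa (ENSDARG00000052960), a marker of cardiac load in mammals, had 20.6, 21.8 and 15.4 CPM with testosterone, 12.7, 13.4 and 15.2 CPM with EGCG and a mean of 11.5 CPM in DMSO (log2 fold change −0.47 ± 0.14, adjusted p 0.0415). The call of nppa was lost with clutch as a block (adjusted p 0.0638) and in 8 of the 12 fits without 1 library, namely any DMSO library, testosterone library 1 or 2, calindol library 4 or EGCG library 1 or 2 (adjusted p up to 0.177).

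Among lipid genes, calls of lipoprotein and fatty acid genes were mostly lower. Lipoproteins carry yolk lipid from the yolk syncytial layer to the embryo, and apolipoprotein B is their structural protein. Of 21 apolipoprotein and lipoprotein assembly genes, 6 (28.6%) fell and 1 (4.76%) rose. The gene that rose did so by 2.79 on the log2 scale, more than any fell, but its call was absent without testosterone library 2 or any EGCG library. It was also absent with only the 6 libraries, with or without a clutch term, and in the DESeq2 test. Its level is not given here. Of the 6 that fell 3 were stable, and the count was 3 without EGCG library 2 and 10 without calindol library 1. The gene apoba (ENSDARG00000042780) fell by 0.89 ± 0.11 (adjusted p 0.0011), with EGCG libraries at 614, 588 and 590 CPM against 939 CPM in the lowest testosterone library. The related gene apobb.2 (ENSDARG00000075016) fell from 107, 139 and 109 CPM to 68.9, 70.0 and 73.8 CPM (log2 fold change −0.74 ± 0.10, adjusted p 0.00138), with a DMSO mean of 62.5 CPM. The gene apoc1 (ENSDARG00000092170) fell by 0.54 ± 0.10 (adjusted p 0.00675). Of 28 fatty acid genes, 7 (25%) fell and 1 rose, with 3 stable and 4, 3 and 3 without EGCG library 1, EGCG library 2 and testosterone library 2. The desaturase gene fads2 (ENSDARG00000019532), which works beside elovl2, fell from 24.1, 26.5 and 27.3 CPM to 16.1, 13.6 and 18.3 CPM (log2 fold change −0.70 ± 0.14, adjusted p 0.0073), between testosterone alone and the DMSO mean of 7.64 CPM. The triglyceride synthesis gene dgat2 (ENSDARG00000018846) and the carnitine transferase gene cpt1b (ENSDARG00000058285) fell by 0.56 and 0.45 (adjusted p 0.00708 and 0.0099), although their products act in opposite branches, storage and oxidation; with only the 6 libraries and a clutch term the call of cpt1b was lost (adjusted p 0.0577). Of 27 cholesterol synthesis genes, 2 rose and 2 fell; the 2 that rose became 1 without EGCG library 1 or 2, and the 2 that fell became 1 without testosterone library 2 or EGCG library 2 and 5 without calindol library 1.

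Calls among genes of cell division and protein breakdown were all lower, and few of them held when 1 library was left out. Of 49 replication and division genes, 13 (26.5%) fell and none rose, with a median of −0.27 and 42 below 0; 2 were stable, lig1 and the kinetochore gene cenpf (ENSDARG00000055133, log2 fold change −0.66 ± 0.11, adjusted p 0.00365). The 13 became 4, 2, 8 and 3 without EGCG libraries 1, 2 and 4 and testosterone library 2, and 8 with clutch as a block. Of 45 proteasome genes, 13 (28.9%) fell and 42 were below 0, but only psmd5 (ENSDARG00000059046), an assembly chaperone, was stable (log2 fold change −0.51 ± 0.11, adjusted p 0.00958). The 13 became 3, 1 and 1 without EGCG library 1, EGCG library 2 and testosterone library 2.

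Most calls in the skin, pigment and macrophage lists were lower, unlike those of the cytokine list. Of 35 epidermal and ionocyte genes, 8 (22.9%) fell and none rose; 4 were stable, and the count was 4, 5 and 5 without EGCG library 1, EGCG library 2 and testosterone library 2. Their summed level was 15480, 8621 and 9022 CPM with testosterone and 11950, 11420 and 9244 CPM with EGCG. These groups overlapped, and EGCG was the higher in clutches 2 and 4, so the list as a whole did not fall. The desmosome gene dspa (ENSDARG00000022309), which ties epidermal cells together, fell from 198, 231 and 202 CPM to 147, 153 and 164 CPM (log2 fold change −0.44 ± 0.07, adjusted p 0.00329). The envoplakin gene evpla (ENSDARG00000019808) fell by 0.59 ± 0.11 (adjusted p 0.00675). Of 31 pigment cell genes, 9 (29.0%) fell and 2 rose; the count of 9 was 3, 2 and 3 in the same fits. Stable were tyr (ENSDARG00000039077), the tyrosinase that begins melanin synthesis, which fell from 37.4, 49.8 and 39.4 CPM to 26.7, 22 and 25.8 CPM (log2 fold change −0.77 ± 0.14, adjusted p 0.00441), and the xanthophore gene aox5 (ENSDARG00000071475), which fell from 52.2, 48.1 and 38.7 CPM to 21.8, 20.6 and 24.7 CPM (log2 fold change −1.04 ± 0.14, adjusted p 0.00176). Summed levels of the pigment list overlapped, at 2822, 2907 and 2397 CPM with testosterone and 2410, 2362 and 2506 CPM with EGCG. Of 15 macrophage genes, 14 had a log2 fold change below 0 and the median was −0.61, and 4 (26.7%) were called, 2 without EGCG library 1 and 1 without EGCG library 2. Their summed level was 942.4, 987.4 and 886.9 CPM with testosterone and 609.7, 623.3 and 682.4 CPM with EGCG, without overlap; mpeg1.1, the usual macrophage marker, was listed at 0. Of 24 genes of cytokines and acute inflammation, 4 (16.7%) rose, 1 fell and none was stable, with a median log2 fold change of 0.13. The 4 became 0 without EGCG library 2 and 2 without EGCG library 4 or testosterone library 2, and the 1 became 0 in 9 of the 12 fits without 1 library, the exceptions being calindol libraries 1 and 2 and EGCG library 4. Of 8 neutrophil genes 2 fell, none stably, although their summed level was 106.7, 84.14 and 102.4 CPM with testosterone and 115.9, 106.6 and 122.1 CPM with EGCG, which was not lower. The 2 became 0 without EGCG library 1 or 2 and 1 without testosterone library 1 or 4 or with clutch as a block. The complement gene c5 (ENSDARG00000021004) fell from 107, 128 and 112 CPM to 64.5, 63.1 and 66.3 CPM (log2 fold change −0.84 ± 0.12, adjusted p 0.00207).

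Exocrine pancreas genes, which encode digestive enzymes, leaned higher with a median log2 fold change of 0.92 and 18 of 20 above 0. Of these, 4 (20%) were called, with 1 stable, cel.2. The count was 2, 1 and 1 without EGCG library 1, EGCG library 2 and testosterone library 2, and 7 without testosterone library 4 or calindol library 1. Their summed level was 190.4, 68.04 and 208.8 CPM with testosterone and 341.3, 301.6 and 252.9 CPM with EGCG, without overlap and with testosterone library 2 the lowest.

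Several pathways linked in other settings to polyphenols or to cell stress had few or no stable calls. Nrf2 is the factor that switches on antioxidant genes, and of 24 tested Nrf2 genes none rose and 2 (8.33%) fell. The 2 became 5 without calindol library 1, 4 without calindol library 2, 1 without testosterone library 2 or EGCG library 1 and 0 without EGCG library 2, and 1 gene rose without DMSO library 2, testosterone library 1 or calindol library 1 or 4. Among them was the heme oxygenase gene hmox1a (ENSDARG00000027529), with 22.9, 29.8 and 33.9 CPM with testosterone and 14.8, 13.5 and 17.7 CPM with EGCG (log2 fold change −0.92 ± 0.19, adjusted p 0.00933, and 0.0583 without EGCG library 2). None of 23 p53 target genes was called by edgeR, with 2 at an unadjusted p under 0.05. Of 12 aryl hydrocarbon receptor targets 2 (16.7%) rose and 1 (8.33%) fell, against 6.05% and 5.59% over all genes. None was stable, and none was called with clutch as a block, without testosterone library 2 or without EGCG library 1 or 2. None of 79 cytosolic ribosomal protein genes was called by edgeR, with 4 at an unadjusted p under 0.05 and a median log2 fold change of 0.01. Of 86 oxidative phosphorylation genes 2 (2.33%) fell, none stably, 1 with clutch as a block and 0 without testosterone library 2 or EGCG library 1 or 2, with a median of −0.02. Of 23 hypoxia response genes 3 (13%) rose and 1 (4.35%) fell. The 3 became 1 with clutch as a block and without testosterone library 2, any DMSO library or any EGCG library, and the 1 became 0 without testosterone library 2, EGCG library 1 or EGCG library 2. The gene that rose stably, igfbp1a (ENSDARG00000099351), whose product binds insulin-like growth factors, rose from 27.0, 23.2 and 25.4 CPM to 37.9, 43.39 and 59.7 CPM (log2 fold change 0.91 ± 0.15, adjusted p 0.00324).

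**Figure D5:**
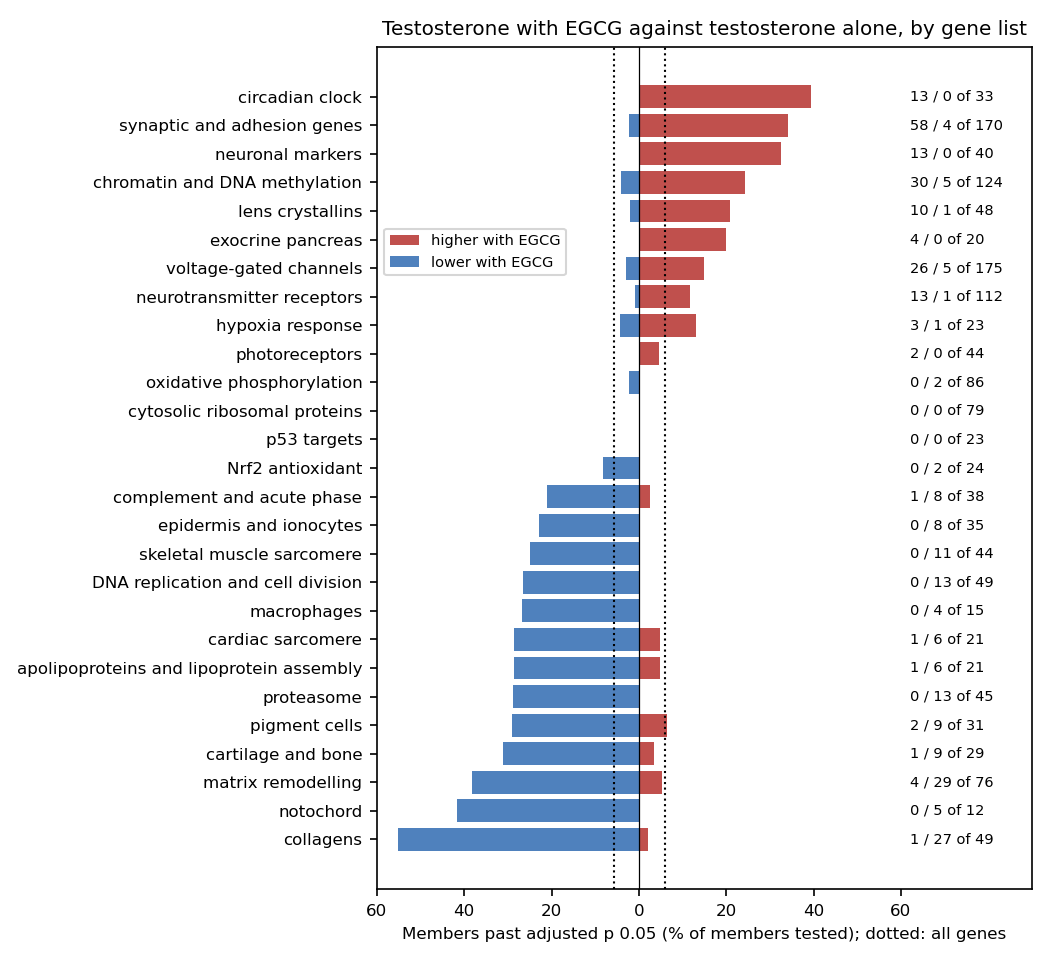
Share of tested members of 27 gene lists past an adjusted p of 0.05, higher with EGCG to the right in red and lower to the left in blue, with counts higher / lower of tested at the right edge; dotted lines mark the shares over all genes, 6.05% higher and 5.59% lower. Clock genes reach 39.4% higher and collagens 55.1% lower, and p53 targets and ribosomal proteins have no bar. Lists were chosen with earlier results of these data known, so distance from the dotted lines is a description and not a test.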

How the data were processed

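Poly(A) RNA was sequenced as directional libraries, per the labels' protocols. The values are raw gene counts deposited by the authors, and the submitters' processing notes name Trim Galore 0.6.10, STAR 2.7.1a, featureCounts and the GRCz11 build. The annotation release, the strand setting and the rule for multi-mapping reads are not given in the sources used here, so reads of near-identical genes may be split or lost. It listed 32520 genes (5732 without a count), and 577 symbols belonged to more than 1 identifier. Names are those of the table. No sequence or genome position is given because no matching genome was used.

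Genes were filtered with filterByExpr (minimum count 10), which left 20237, and scaled by trimmed means of M values (TMM); CPM are on that scale. All 12 libraries entered 1 edgeR 4.0.16 quasi-likelihood fit in R 4.3.3 that gave each group its own mean (residual degrees of freedom 8, median prior 6.68). Two-sided p-values had Benjamini-Hochberg adjustment over all genes tested and a threshold of 0.05. Standard errors (SE) of log2 fold changes were derived from that fit, as the absolute log2 fold change divided by the square root of its F statistic. The fit was tested on simulated data. Those data held no clutch effect and no deviating library, so they do not speak to the dependence on single libraries. Whether a library is a pool of embryos is not given in the sources used here.

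Clutch numbers are labelled litters and so pair the libraries. Deviations from group means correlated across genes at 0.103, −0.0864 and 0.0409 between the testosterone and EGCG libraries of clutches 1, 2 and 4. Between testosterone and EGCG libraries of different clutches the values ran from −0.232 to 0.217, a range that holds the same-clutch values. Clutch as a block was an alternative.

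Members and lists were chosen with earlier results of these data known, so list shares set beside those of all genes are descriptions and not tests. Genes named are the 10 stable ones each way with the largest changes (groups apart, a mean of at least 1 CPM in the higher group, a symbol with 1 identifier), list members with the lowest adjusted p, and a receptor panel. Further list members, and genes outside the lists, were chosen among the stable ones after their values were seen; myh6, myl7 and tsc22d3 were also chosen then.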

Additional observations from a re-analysis of the deposited data

How the results depend on the processing

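Of 2355 genes changed, 1224 higher and 1131 lower, the fits without 1 library gave 584 to 3199 changed, 298 to 1583 higher and 286 to 1616 lower; the lowest came without EGCG library 2 and the highest without calindol library 1. With clutch as a replicate block 1811 changed, 979 higher and 832 lower, and all 485 stable genes kept their calls. With only the 6 libraries and the block 1265 changed, 801 higher and 464 lower. A minimum absolute log2 fold change of 1 left 206, 113 higher and 93 lower. With DESeq2 size factors, which moved the median log2 fold change of all genes from −0.02 to 0.00, 1360 rose and 904 fell. The DESeq2 test gave 1729 and 1223, no filter on low counts 1312 and 1124, and the 6 libraries without a block 1099 and 755. Genes that were not called could change sign. Without 1 library the log2 fold change of cyp19a1b ran from −0.03 (testosterone library 2) to 0.38 (testosterone library 4), and that of ar from −0.72 (EGCG library 2) to 0.53 (EGCG library 4), with −0.05 on omitting testosterone library 1. That of ar was −0.01 with the 6 libraries and the block. Of the stable genes named here, lamc1 and cpt1b missed the threshold with the 6 libraries and the block (adjusted p 0.062 and 0.0577). How many of all 485 stable genes lost their calls in that fit was not counted. The cause of these shifts was not tested. A correction for gene length was not run, since no genome of the matching build was used. Genes with about 10 counts in fewer than 3 libraries were out of reach of the main fit at this depth. A gene could be tested with fewer counts in 1 of the compared groups, as lmo3 and gpr85 were.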

Other observations

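Of the 485 stable genes, 352 (72.6%) belonged to none of the 79 lists, against 17209 (85%) of the 20237 genes tested. The genes named in this section were picked after their values were seen, from the stable genes outside the lists with the smallest adjusted p, and are given as a description. Among those that rose were several receptors that guide axons and space neurites. The planar polarity cadherin gene celsr3 rose from a mean of 58.2 CPM with testosterone to 109 CPM with EGCG (log2 fold change 0.90, adjusted p 0.00189). The self-avoidance gene dscamb rose from 59.0 to 118 CPM (log2 fold change 1.00, adjusted p 0.00207). The teneurin gene tenm4, a transmembrane adhesion gene, rose from 61.3 to 105 CPM (log2 fold change 0.77, adjusted p 0.00207). The photoreceptor and pineal transcription factor gene otx5 rose from 44.4 to 79.7 CPM (log2 fold change 0.84, adjusted p 0.00188). The cytokine signalling inhibitor gene cish, a target of STAT5 in mammals, rose from 17.0 to 34.5 CPM, with a DMSO mean of 11.4 CPM (log2 fold change 1.01, adjusted p 0.0011).

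Among stable genes outside the lists that fell were proteoglycans of connective tissue. The small leucine-rich proteoglycan genes fmodb, kera and lum fell from means of 26.2, 129 and 183 CPM to 13.6, 70.7 and 121 CPM (log2 fold changes −0.94, −0.86 and −0.60, adjusted p 0.000408, 0.00188 and 0.00191). The versican gene vcanb, a large proteoglycan of early matrix and of the heart, fell from 219 to 110 CPM (log2 fold change −0.99, adjusted p 0.00138). The tenascin gene tnn fell from 566 to 355 CPM (log2 fold change −0.67, adjusted p 0.00163). The sarcoglycan gene sgcg, part of the complex that links the muscle membrane to the matrix, fell from 86.8 to 44.1 CPM (log2 fold change −0.98, adjusted p 0.000281), and the calcium release channel gene ryr1a fell from 69.2 to 42.3 CPM (log2 fold change −0.70, adjusted p 0.00207).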
